A study of Homo sapiens with 12 samples.

Results

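The genes described here encode 8 transporters that carry amino acids across the plasma membrane: SLC38A1, SLC38A2, SLC1A4, SLC1A5, SLC6A9, SLC7A1, SLC7A5 and SLC3A2. They were taken by name from the 18650 coding genes that the files cover, and 8 of 8 were found and passed the filter on low counts in both kinds of read tested. Their RNA was measured by SLAM-seq, which marks RNA made during a short labelling period, in 22Rv1, a human prostate cancer cell line. All 12 libraries came from cells gene-edited to carry the C1111S substitution in SF3B1, a subunit of the SF3b splicing complex, so the DMSO cells carry it too, and no cells with unedited SF3B1 enter these comparisons. The labels do not say whether the edited line is a single clone, and do not state how the replicates were grown. The p-values therefore rest on the differences seen among these libraries, which may be technical. Cells received the stereoprobe WX-02-23 at 20 µM for 3 h, the stereoprobe WX-02-43 at 20 µM for 3 h, PladB (pladienolide B, an inhibitor of SF3b) at 10 nM for 3 h, or DMSO at 0.1% v/v as the vehicle, and then 4-thiouridine (S4U) at 100 µM for 1 h. Each of the 4 groups had 3 libraries.

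Amino acid transporters of the solute carrier families set how fast a cell can take up glutamine, serine, glycine, arginine and leucine, and proliferating prostate cancer cells are known to depend on several of them. Some members couple uptake to sodium, while others exchange an amino acid inside the cell for one outside it. Several of their genes are classical targets of the amino acid response, in which the kinase GCN2 senses uncharged tRNA and raises translation of ATF4, a transcription factor. Leucine and arginine brought in by them are sensed by proteins that regulate the growth kinase mTORC1 at the lysosome.

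In SLAM-seq the alkylated S4U reads as C where the genome has T. A T>C read is a read with such a change, and the share of a gene's reads that are T>C reads is called its labelled share. The 3′ end libraries held 24670716 to 42190854 reads, of which 12333255 to 21417549 fell on coding genes and 826774 to 2094424 of those were T>C reads. The labelled share of all coding reads was 9.641% ± 0.2175 (SD, n = 3) for WX-02-23, 9.099% ± 0.2765 for WX-02-43, 5.439% ± 0.1908 for PladB and 9.446% ± 0.4301 for DMSO, so the PladB libraries carried fewer labelled reads on the whole. No library without S4U was analysed here, and T>C reads that come from sequencing errors or variants were not subtracted. The prostate label was checked against 10 luminal markers, all of which had reads in all 12 libraries, KLK3 at only 1.87 to 8.62 CPM, reads scaled to a common library size. Of 18 markers of blood, vessel, stromal, basal and neuroendocrine cells, 6 were at 0 in all libraries, and SYP was the highest at 8.87 to 22.5 CPM. The summed level of the 18 came to 19.5 to 38.5 CPM for WX-02-23, 19.9 to 33.2 for WX-02-43, 23.4 to 33.3 for PladB and 22.7 to 26.5 for DMSO. These marker values are scaled to all reads of each library and are not comparable with the CPM of genes given below.

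The regions around the transcript starts of the genes are shown first, with their matches to 2 short motifs known from amino acid and growth control. TGATGNAA is a short form of the C/EBP-ATF response element, the kind of site that ATF4 binds together with C/EBP proteins. CACGTG is the E-box bound by MYC and related factors. RefSeq promoters (GRCh38.p14, 250 bases before to 50 after a transcript start) were found for 8 of 8 genes, 14 promoters in all. On either strand, TGATGNAA stood in 5 of the 14 promoters and in 3.62% of all 35116 promoters. By gene, it stood in a promoter of 5 of the 8 genes and of 4.46% of all 27305 genes with one. CACGTG stood in 2 of the 14 promoters and in 7.26% of all promoters, and in a promoter of 2 of the 8 genes and of 8.77% of all genes. The 2 motifs share no letters in these promoters, and a match is only a match of letters. The 5 sequences below run 5′ to 3′ in the direction of transcription, from 150 bases before the start to 30 bases after its first base included, with the match in capitals.
SLC1A4, chr2:64989249-64989428, plus strand: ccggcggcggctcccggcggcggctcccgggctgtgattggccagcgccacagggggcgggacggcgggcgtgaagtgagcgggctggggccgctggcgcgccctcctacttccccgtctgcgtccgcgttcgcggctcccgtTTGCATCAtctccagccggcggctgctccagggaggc
SLC7A1, chr13:29595659-29595838, minus strand: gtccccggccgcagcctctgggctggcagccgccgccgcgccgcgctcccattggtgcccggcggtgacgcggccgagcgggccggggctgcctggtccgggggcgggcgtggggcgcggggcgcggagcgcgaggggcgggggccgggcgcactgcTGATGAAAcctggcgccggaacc
SLC38A1, chr12:46266487-46266666, minus strand: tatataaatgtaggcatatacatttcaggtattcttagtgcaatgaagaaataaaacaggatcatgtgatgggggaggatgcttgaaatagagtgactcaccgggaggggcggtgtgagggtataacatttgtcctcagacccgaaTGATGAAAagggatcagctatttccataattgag
SLC1A5, chr19:46784785-46784964, minus strand: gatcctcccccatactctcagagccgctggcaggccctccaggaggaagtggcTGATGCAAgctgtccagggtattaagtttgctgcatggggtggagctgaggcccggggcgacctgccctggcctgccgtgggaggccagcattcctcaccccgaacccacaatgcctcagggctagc
SLC7A5, chr16:87869478-87869657, minus strand: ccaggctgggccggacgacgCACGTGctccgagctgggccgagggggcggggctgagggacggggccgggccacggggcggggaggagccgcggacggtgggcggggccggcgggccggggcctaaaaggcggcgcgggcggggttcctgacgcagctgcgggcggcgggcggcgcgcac
In SLC1A4 the match lies on the strand opposite to transcription, at positions -7 to 1, where 1 is the first transcribed base. In SLC7A1 it is at 8 to 15, in SLC38A1 at -4 to 4 and in the SLC1A5 promoter shown at -97 to -90. SLC3A2 has a match on the opposite strand at 38 to 45, past the stretch shown for the others. CACGTG is at -130 to -125 in SLC7A5 and at -50 to -45 in another promoter of SLC1A5. Neither SLC38A2 nor SLC6A9 has a match to either motif in this window.

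In vehicle-treated cells the 8 genes differed widely in how much of their RNA was labelled. The labelled share in DMSO was highest for SLC38A2, at 29.01% ± 3.183 (SD, n = 3), followed by SLC3A2 at 19.7% ± 0.839, and these 2 genes overlapped neither each other nor the next gene in the order. SLC1A4 (15.13% ± 0.7389), SLC1A5 (14.92% ± 6.285), SLC7A1 (14.48% ± 3.878), SLC7A5 (13.39% ± 2.101) and SLC38A1 (10.87% ± 2.649) followed, and neighbours among them overlapped. The wide spread of SLC1A5, from 8.369% to 20.9%, also reached into the range of SLC3A2. SLC6A9 was lowest at 3.236% ± 1.344, below all libraries of SLC38A1. The median of 7927 genes with at least 100 reads in each library was 8.538%, so 7 of the 8 genes lay above it, and 6.98% of genes had a higher share than SLC38A2. A read with more T positions is more likely to hold a T>C, and per covered T position SLC38A2 was again highest, at 1.997 conversions per 100 covered T ± 0.2163, with SLC3A2 next at 1.568 ± 0.02258 and SLC6A9 lowest at 0.1422 ± 0.06678.

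**Figure D1:**
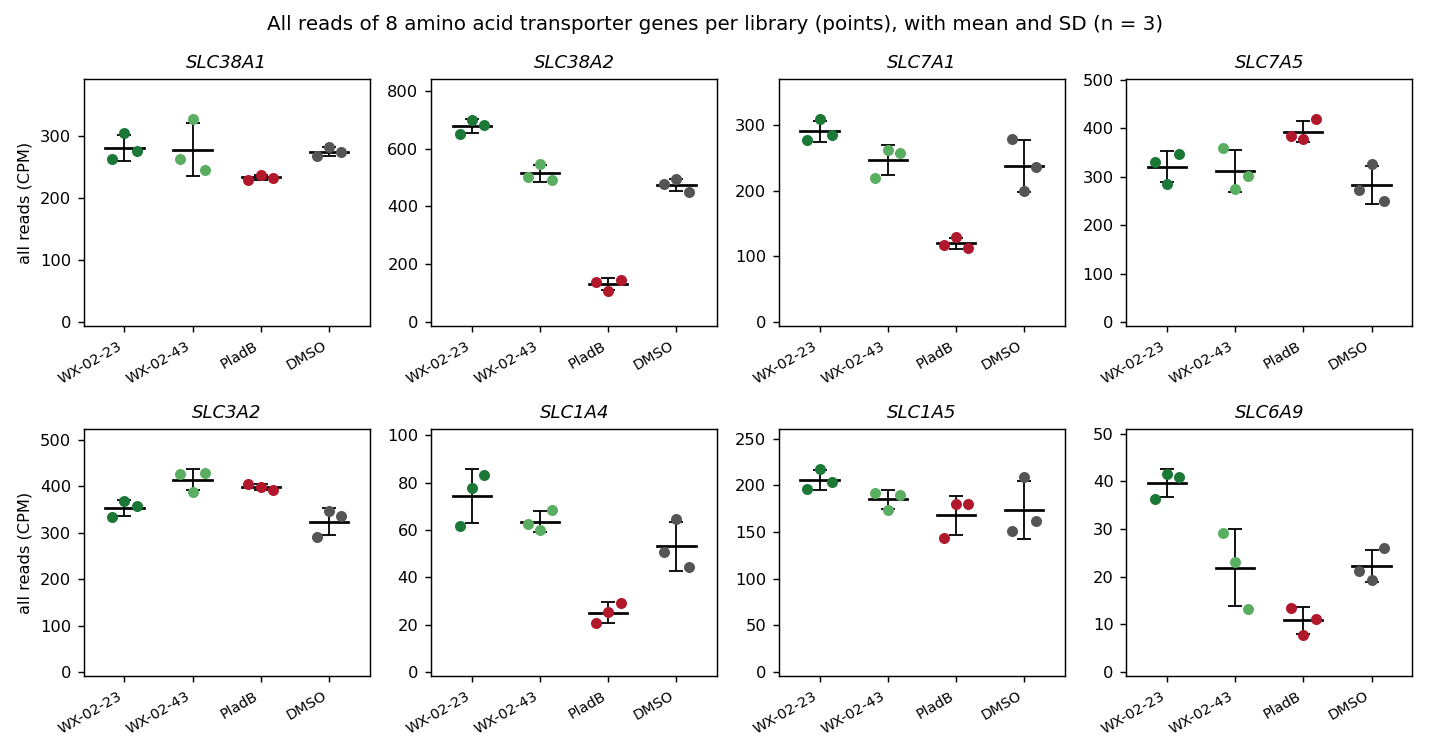
All reads of each gene in CPM (TMM scaled) in each of the 12 libraries; points are libraries, horizontal bars the mean and whiskers the SD (n = 3). SLC38A2 stands at 651.1 to 697.7 CPM with WX-02-23, 491.6 to 548.2 with WX-02-43, 107.3 to 145.1 with PladB and 451.4 to 494.8 with DMSO.

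PladB against DMSO asks what an SF3b inhibitor does to the transcripts of these genes within hours. After PladB, all reads of SLC38A2, SLC1A4, SLC7A1 and SLC6A9 fell, those of SLC7A5 and SLC3A2 rose, and those of SLC38A1 and SLC1A5 did not pass the test. T>C reads of SLC1A4, SLC7A1 and SLC38A2 fell, and those of SLC7A5 rose relative to the typical gene, although this last direction turned when T>C reads were scaled to all reads (log2 change -0.07). Among the 4 genes that fell in all reads, SLC38A2 was the one whose labelled share was higher in PladB, where the share of all coding reads was lower. In a count over the 8 genes, edgeR's quasi-likelihood test with Benjamini-Hochberg adjustment over all genes called 6 in all reads (2 higher, 4 lower), where 30.1% of 13178 genes tested were called, 13.9% higher and 16.3% lower. In T>C reads it called 4 (1 higher, 3 lower), where 10.6% of 10722 genes were called, 4.72% higher and 5.9% lower. A call is an adjusted p under 0.05 throughout. The median log2 change of all genes was -0.07 in all reads and -0.36 in T>C reads, and the medians of the 8 genes were -0.61 and -0.42. Conversions per 100 covered T over all coding genes were 0.3178 ± 0.008942 in PladB and 0.7062 ± 0.02449 in DMSO, and the part of this lower labelling in the T>C results was not tested. Scaled to all reads, the calls over all genes were 85 higher and 1750 lower in T>C reads, against 506 higher and 633 lower when scaled to T>C reads. With that scaling 7 of the 8 genes were called, all lower, and SLC7A5 was not. In bulk RNA, fewer cells holding a transcript and less of it per cell cannot be told apart.

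SLC38A2 encodes SNAT2, a sodium-coupled carrier of glutamine, alanine and other small neutral amino acids, and is the best known amino acid responsive gene of its family. Its 3′ UTR interval is on chromosome 12, 46751971 to 46754893 (hg19, minus strand), in a transcript of 16 exons (exon counts here are from GENCODE v29). All reads were 140.4, 107.3 and 145.1 CPM in PladB, against 477.8, 494.8 and 451.4 CPM in DMSO. The PladB libraries all lay far below the DMSO libraries. The log2 change was -1.86 (SE 0.10, adjusted p = 3.06e-17, edgeR), 3.62-fold lower. T>C reads were 1001, 709.7 and 1053 CPM of T>C reads in PladB, against 1344, 1453 and 1542 in DMSO. These groups did not overlap either, but the difference was smaller: the log2 change was -0.65 (SE 0.15, adjusted p = 0.00249, edgeR), 1.57-fold lower, beside the median of -0.36 for all genes. Scaled to all reads, where the median gene stood at -1.15, it was -1.45. The labelled share of SLC38A2 was 40.06%, 36.47% and 38.16% in PladB, against 27.47%, 26.89% and 32.67% in DMSO. Every PladB library lay above every DMSO library, an order seen in 1.1% of the 7927 genes ranked. A two-sided exact permutation test gave p = 0.1, and with 3 libraries a group none can be smaller (0.4571 after adjustment over 32 tests). Relative to the typical gene, in a fit of T>C and other reads together, the share was higher by 1.48 on the log2 scale (SE 0.17, adjusted p = 1.05e-05, edgeR). With both kinds of read scaled to the same total, this was 0.60 and was not called (adjusted p = 0.0743). Only 1.08% of genes had a higher mean share in PladB than SLC38A2. Per covered T position, its conversions were 2.305 per 100 ± 0.1806 in PladB and 1.997 ± 0.2163 in DMSO, and these groups overlapped.

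SLC38A1, its close relative, encodes SNAT1, which carries glutamine and is on the same chromosome (46576838 to 46582752, minus strand, 18 exons). All reads were 230, 237.5 and 233.2 CPM in PladB, against 268.2, 282.1 and 274.8 CPM in DMSO. The PladB libraries lay below DMSO, but the log2 change of -0.24 (SE 0.11, adjusted p = 0.0968, edgeR) was not called. T>C reads were 208.2 to 358.2 CPM of T>C reads in PladB and 227.4 to 359.6 in DMSO, with a log2 change of -0.04 (95% interval -0.57 to 0.48) relative to T>C reads. Scaled to all reads, the log2 change was -0.85 and was called (adjusted p = 0.021, edgeR). The difference between the changes of SLC38A2 and SLC38A1 was not tested.

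SLC7A1 encodes CAT1, the carrier for arginine and lysine, on chromosome 13 (30083551 to 30088616, minus strand, 13 exons). T>C reads were 47.58, 85.54 and 73.32 CPM of T>C reads in PladB, against 444.2, 384.8 and 250.5 in DMSO. The highest PladB library lay well below the lowest DMSO library. The log2 change was -2.39 (SE 0.30, adjusted p = 2.45e-07, edgeR), 5.25-fold lower. All reads were 117.3, 129.5 and 112.3 CPM in PladB, against 278.3, 199.2 and 235.6 CPM in DMSO, which edgeR put at -0.99 on the log2 scale (SE 0.12, adjusted p = 2.24e-08). Here too no PladB library reached the DMSO range. The labelled share was 3.119% ± 0.7346 in PladB and 14.48% ± 3.878 in DMSO (SD, n = 3). It fell by 1.51 on the log2 scale relative to the typical gene (SE 0.34, adjusted p = 0.0137, edgeR), a call lost without DMSO replicate 1 (adjusted p = 0.0612), DMSO replicate 2 (0.0826) or PladB replicate 1 (0.0537), and in a fit of the 2 groups alone (0.109).

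SLC1A4 and SLC1A5 encode the exchangers ASCT1 and ASCT2. ASCT1 carries serine, alanine and cysteine, and ASCT2 is a main route for glutamine in many tumours. SLC1A4 (chromosome 2, 65248281 to 65250999, plus strand, 7 exons) had 4, 3 and 1 T>C reads in PladB, against 129, 159 and 114 in DMSO. As CPM of T>C reads these were 3.965, 4.01 and 1.383 in PladB and 74.33, 111.2 and 71.03 in DMSO. Almost no labelled SLC1A4 RNA was thus read in PladB, and the few reads leave the size of the fall imprecise: the log2 change was -4.71, with a 95% interval of -6.27 to -3.15 (SE 0.77, adjusted p = 3.35e-05, edgeR). All reads of SLC1A4 fell less, to 20.6, 25.27 and 29.4 CPM in PladB, against 50.69, 64.64 and 44.34 CPM in DMSO. No PladB library overlapped DMSO, and the log2 change was -1.09 (SE 0.19, adjusted p = 2.47e-05, edgeR). Its labelled share was 1.081%, 0.8746% and 0.2475% in PladB, against 14.32%, 15.76% and 15.32% in DMSO. Relative to the typical gene edgeR put it at -3.78 on the log2 scale (SE 0.80, adjusted p = 0.0101), not called in a fit of the 2 groups alone (adjusted p = 0.102).

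SLC1A5 (chromosome 19, 47278140 to 47278766, minus strand, 7 exons) had 143.3, 179.9 and 179.9 CPM of all reads in PladB, against 151, 209 and 161.7 CPM in DMSO. The groups overlapped, and the log2 change was -0.05, with a 95% interval of -0.30 to 0.20. T>C reads were 273.6, 140.3 and 323.7 CPM of T>C reads in PladB, against 239.7, 191 and 353.3 in DMSO, also overlapping, with a log2 change of -0.09 (95% interval -0.67 to 0.50) relative to T>C reads. Scaled to all reads, it was -0.89 and was called (adjusted p = 0.0287, edgeR). Its interval holds more multimapping reads than the others, 4.34% against at most 0.503%, and leaving these out did not change its call.

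SLC6A9 encodes GlyT1, the sodium- and chloride-coupled glycine carrier, on chromosome 1 (44462155 to 44463216, minus strand, 14 exons). It had the fewest reads of the 8 genes. T>C reads in this 3′ UTR interval were 0, 0 and 0 in PladB, against 18, 8 and 10 in DMSO. In the rest of a longer interval, that of a non-coding transcript spanning the gene, T>C reads numbered 17, 0 and 0 in PladB, against 0, 0 and 68 in DMSO, and these were not used. The DMSO mean of 7.4 CPM of T>C reads was 1.99-fold above the mean level that 3 counts would give in a PladB library. This ratio is no lower bound, since it leaves out the spread and counting error of DMSO. The lowest DMSO library was at 5.597 CPM of T>C reads, beside 4.15 for 3 counts in PladB replicate 3. The fall was not called by edgeR (adjusted p = 0.062). It was called when scaled to all reads (adjusted p = 0.0203, edgeR) and by DESeq2 (adjusted p = 0.00817). With 243, 107 and 153 reads in the PladB libraries, a count of 0 allows labelled shares of up to 1.23%, 2.8% and 1.96%, covering counting error only. The share in DMSO was 4.775%, 2.64% and 2.294%, which overlaps what these limits allow. Relative to the typical gene the share was not called (adjusted p = 0.183, edgeR), and with both kinds of read scaled to the same total it was (adjusted p = 0.0269). All reads were 13.53, 7.884 and 11.14 CPM in PladB, against 21.21, 19.41 and 25.98 CPM in DMSO. All PladB libraries were lower, and edgeR gave a log2 change of -1.03 (SE 0.29) at an adjusted p of 0.00511.

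SLC7A5 and SLC3A2 encode the 2 chains of the exchanger LAT1-CD98: the SLC7A5 protein carries leucine and other large neutral amino acids, and the SLC3A2 protein is the heavy chain that brings it, and other light chains, to the membrane. SLC7A5 (chromosome 16, 87863622 to 87866575, minus strand, 10 exons) had 383.4, 378.6 and 418.4 CPM of all reads in PladB, against 273.7, 326.8 and 249.6 CPM in DMSO. All PladB libraries were higher, by 0.47 on the log2 scale (SE 0.11, adjusted p = 0.000865, edgeR). Its T>C reads were 562.1, 582.7 and 859.1 CPM of T>C reads in PladB, against 440.8, 456.8 and 304.1 in DMSO, again without overlap. The log2 change of 0.74 (SE 0.23, adjusted p = 0.0327, edgeR) was relative to T>C reads: scaled to all reads it was -0.07. This call was also lost without PladB replicate 3 (adjusted p = 0.214) or DMSO replicate 3 (0.183), in a fit of the 2 groups alone (0.12), with DESeq2 size factors (0.0553) and with plain sums of intervals (0.0599). Its labelled share was 8.233%, 8.486% and 10.8% in PladB, against 15.72%, 12.8% and 11.65% in DMSO, so the share itself was lower while that of all coding reads was lower too.

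SLC3A2 (chromosome 11, 62656166 to 62656355, plus strand, 10 exons) had 403.5, 398.6 and 391.5 CPM of all reads in PladB, against 289.9, 345.9 and 335.1 CPM in DMSO. The groups did not overlap, and the log2 change was 0.30 (SE 0.10, adjusted p = 0.0152, edgeR). With DMSO replicate 1 left out the adjusted p was 0.133, with PladB replicate 1 left out 0.0566, and neither was a call. T>C reads were 601.7, 497.2 and 676.5 CPM of T>C reads in PladB, against 568.7, 728.3 and 724 in DMSO, overlapping, with a log2 change of -0.19 relative to T>C reads (adjusted p = 0.605, edgeR). Scaled to all reads, it was -0.98 and was called (adjusted p = 0.000205, edgeR). Its labelled share was 8.376%, 6.876% and 9.091% in PladB, against 19.15%, 19.28% and 20.67% in DMSO. These did not overlap, but relative to the typical gene the share was not called (log2 change -0.61, adjusted p = 0.148, edgeR). With both kinds of read scaled to the same total it was called (-1.48, adjusted p = 0.00171).

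**Figure D2:**
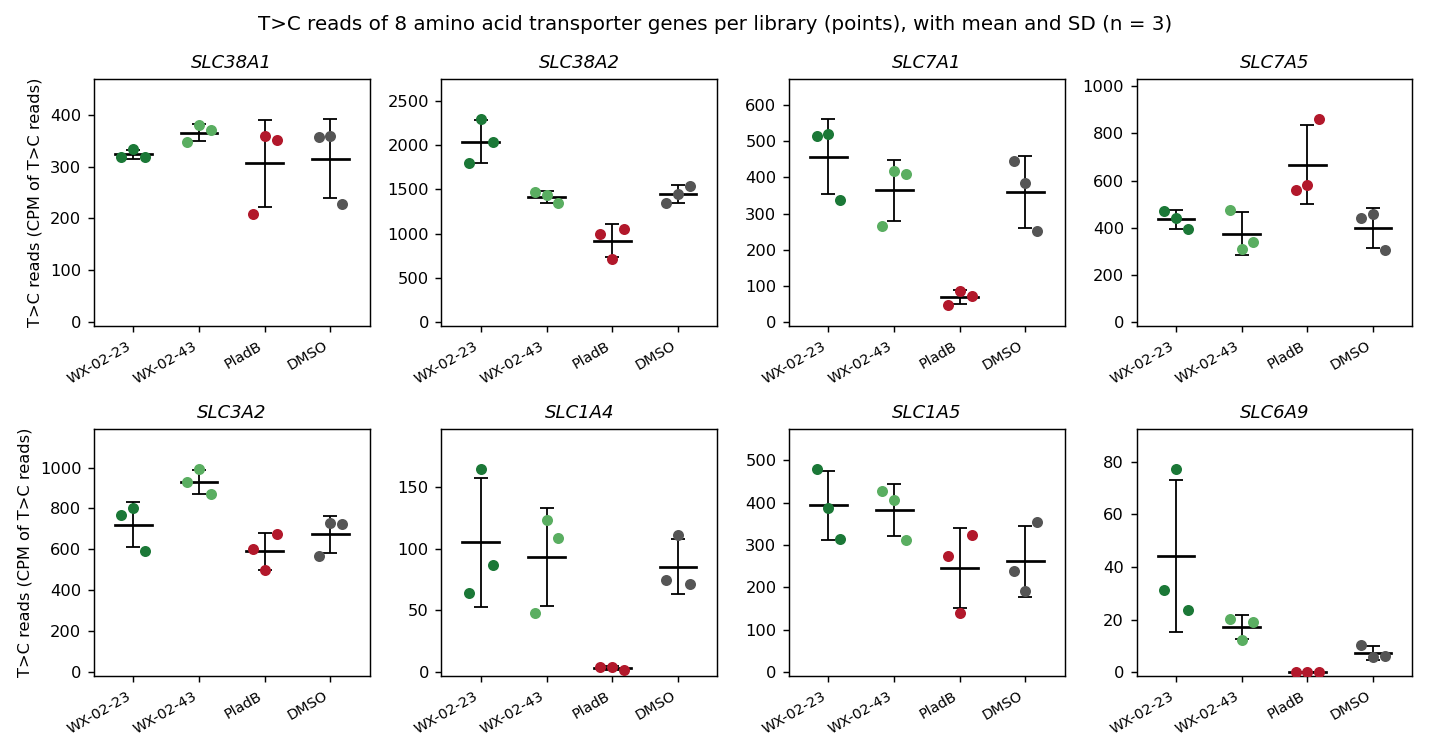
T>C reads of each gene, in CPM of T>C reads (TMM scaled), per library; points are libraries, bars the mean and whiskers the SD (n = 3). SLC1A4 and SLC6A9 lie at or near 0 in PladB (1.383 to 4.01, and 0), whereas SLC7A5 lies at 562.1 to 859.1 in PladB and 304.1 to 456.8 in DMSO, a direction that turns when scaled to all reads (log2 change -0.07).

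**Figure D3:**
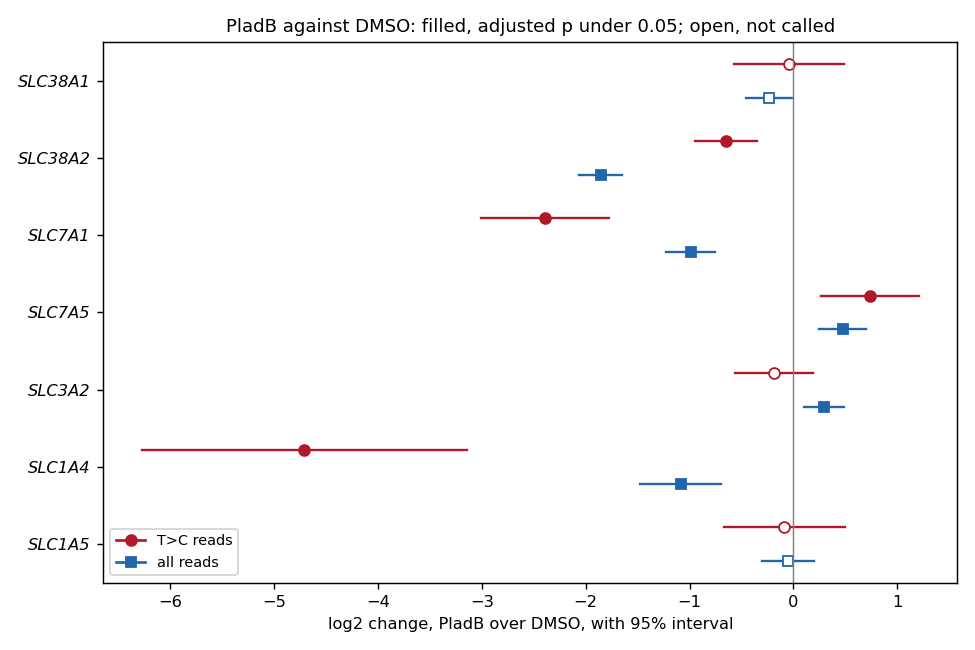
Log2 changes in PladB over DMSO with 95% intervals for 7 of the 8 genes, T>C reads in red circles and all reads in blue squares; SLC6A9 is left out because its 3′ UTR interval had no T>C read in PladB. For SLC7A1 and SLC1A4 the T>C change (-2.39 and -4.71) lies below that of all reads (-0.99 and -1.09), and for SLC38A2 it lies above (-0.65 and -1.86); for SLC7A5 the T>C change turns to -0.07 when scaled to all reads.

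Across the 8 genes, the labelled share itself, with no scaling to other genes, was lower in all PladB libraries than in all DMSO libraries for 4 genes (SLC7A1, SLC7A5, SLC3A2 and SLC1A4) and higher for 1 (SLC38A2), and it overlapped for SLC38A1 and SLC1A5. For SLC6A9 the counted shares in PladB were 0, but the limits on them reach 2.8%, within the DMSO range, so no order is given. Of the 7927 genes ranked, 37% were lower and 1.1% higher without overlap, by counted shares in which a 0 is taken as it stands. By that rule SLC6A9 would also count as lower. Mean shares in PladB ran from 0 for SLC6A9 through 0.7344% for SLC1A4 and 3.119% for SLC7A1 to 7.108% for SLC38A1, 8.114% for SLC3A2, 8.164% for SLC1A5, 9.174% for SLC7A5 and 38.23% for SLC38A2, beside a median of 4.154% over genes. In PladB the neighbours from SLC38A1 to SLC7A5 overlapped, whereas SLC38A2 stood apart. SLC7A1 overlapped no counted share of another gene, but its lowest library, at 2.279%, lay under the limit of 2.8% for SLC6A9. SLC1A4 lay within the limits that 0 counts allow for SLC6A9. SLC6A9 could thus be ordered against neither SLC1A4 nor SLC7A1. Relative to the typical gene, edgeR called 3 of the 8 genes in the labelled share (1 higher, 2 lower), where 2.9% of genes were called, 0.914% higher and 1.99% lower. The median log2 change of the share was -0.35 over the 8 genes and -0.47 over all genes.

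**Figure D4:**
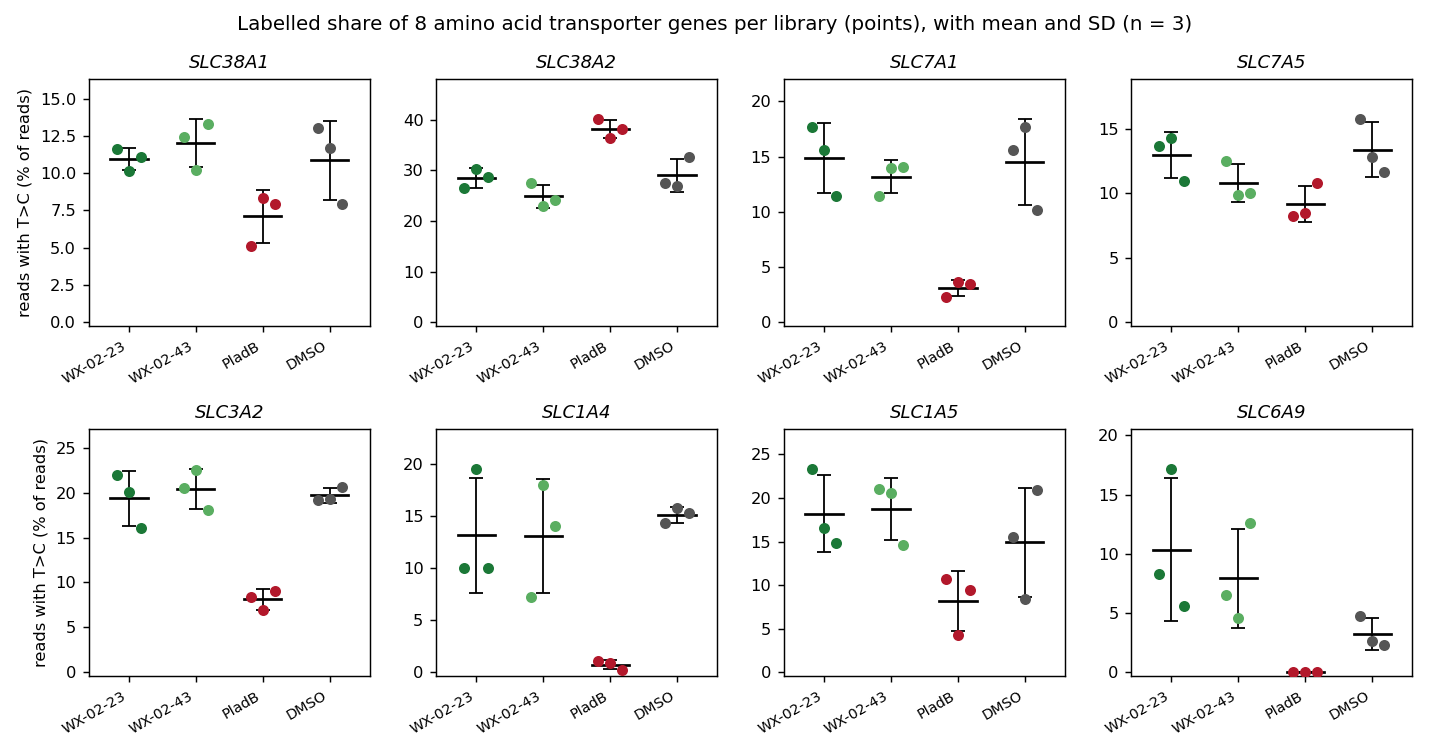
Labelled share of each gene (reads with T>C as a percent of its reads) per library; points are libraries, bars the mean and whiskers the SD (n = 3). SLC38A2 is the one gene of the 8 whose PladB libraries (36.47% to 40.06%) all lie above DMSO (26.89% to 32.67%).

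WX-02-23 against DMSO asks what this stereoprobe does in cells that carry the C1111S substitution. All reads of SLC38A2 rose, and this was the only one of the 8 genes called, where 0.698% of 13178 genes were called. All reads of SLC38A2 were 651.1, 697.7 and 681.7 CPM in WX-02-23, against 477.8, 494.8 and 451.4 CPM in DMSO. No library of the groups overlapped, and the log2 change was 0.51 (SE 0.10, adjusted p = 0.00297, edgeR), 1.43-fold higher. Its T>C reads were 1799, 2289 and 2031 CPM of T>C reads in WX-02-23, against 1344, 1453 and 1542 in DMSO. These groups did not overlap either, with a log2 change of 0.50 (SE 0.15, 95% interval 0.20 to 0.79) that edgeR did not call (adjusted p = 0.329) and DESeq2 did (adjusted p = 0.00939). The labelled share of SLC38A2 was 28.5% ± 1.979 in WX-02-23 and 29.01% ± 3.183 in DMSO, and these overlapped.

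In T>C reads edgeR called 0 of the 8 genes in WX-02-23 against DMSO, where it called 0.224% of 10722 genes. Before adjustment 2 of the 8 lay under 0.05, where 487 of the 10722 did. DESeq2 called 1 of the 8, where it called 53 higher and 22 lower of 1938 genes given an adjusted p. All 8 log2 changes were above 0 in both kinds of read, with medians of 0.32 in T>C reads and 0.26 in all reads, beside 0.00 for all genes. The 8 genes were measured in the same libraries, so their changes are not independent of each other. SLC6A9, the glycine carrier, had 36.2, 41.64 and 40.84 CPM of all reads in WX-02-23, against 21.21, 19.41 and 25.98 CPM in DMSO. The groups did not overlap, but the log2 change of 0.83 (SE 0.28, 95% interval 0.26 to 1.40) was not called (adjusted p = 0.231, edgeR). Its T>C reads numbered 67, 93 and 39 in WX-02-23, against 18, 8 and 10 in DMSO, with a log2 change of 2.56 whose interval was wide (-0.46 to 5.58). The labelled share of SLC6A9 was 8.292%, 17.13% and 5.612% in WX-02-23, above the 4.775%, 2.64% and 2.294% in DMSO, an order seen in 6.08% of the 7927 genes ranked. SLC1A4 (log2 change 0.48, adjusted p = 0.36), SLC7A1 (0.29, adjusted p = 0.4) and SLC1A5 (0.24, adjusted p = 0.604) were not called in all reads by edgeR. The other 3 genes had log2 changes of all reads from 0.03 to 0.18, with intervals from -0.18 to 0.40. In the labelled share relative to the typical gene 0 were called, where 0.0187% of genes were called. At an unadjusted p under 0.05 there were 0, where 386 of 10722 genes lay under it.

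WX-02-43, the other stereoprobe, was given at the same dose and for the same time. None of the 8 genes was called by edgeR: 0 in T>C reads, where 0.0933% of genes were called, 0 in all reads, where 0.167% were called, and 0 in the labelled share, where 0.0187% were called. At an unadjusted p under 0.05 there were 1, 1 and 0 genes, where 409 of 10722, 772 of 13178 and 369 of 10722 lay under it. DESeq2 called 0 of the 8 in T>C reads, where it called 30 higher and 19 lower of 10070 genes given an adjusted p. In all reads it called 1 of the 8, where it called 24 higher and 31 lower of 4809. That gene was SLC3A2, the heavy chain, with 425.3, 387.5 and 427.4 CPM of all reads in WX-02-43, against 289.9, 345.9 and 335.1 CPM in DMSO. The groups did not overlap, and the log2 change of 0.35 (SE 0.10) had an adjusted p of 0.203 in edgeR and 0.009 in DESeq2. T>C reads of SLC3A2 were 927.4, 990.7 and 872.4 CPM of T>C reads in WX-02-43, against 568.7, 728.3 and 724 in DMSO, a log2 change of 0.47 (SE 0.19; edgeR, adjusted p = 1). SLC38A2 had 503.5, 548.2 and 491.6 CPM of all reads in WX-02-43, against 477.8, 494.8 and 451.4 CPM in DMSO. These overlapped, with a log2 change of 0.12 (95% interval -0.08 to 0.32). Its labelled share was 24.89% ± 2.313 in WX-02-43 and 29.01% ± 3.183 in DMSO, also overlapping. Conversions per 100 covered T went the other way, 2.735 ± 0.09928 in WX-02-43 and 1.997 ± 0.2163 in DMSO, without overlap (exact permutation p = 0.1, 0.2133 after adjustment over 32 tests), and over all coding genes they were 0.9132 ± 0.03643 in WX-02-43 and 0.7062 ± 0.02449 in DMSO. The part of that higher rate in the value of SLC38A2 was not tested. For the 7 genes other than SLC3A2, log2 changes of all reads ran from -0.02 to 0.26, and their intervals from -0.59 to 0.64. Of all 8 genes, 6 lay above 0 in T>C reads and 7 in all reads, with medians of 0.17 and 0.10.

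The stereoprobes were also compared with each other, since dose and time matched. None of the 8 genes was called by edgeR in WX-02-23 against WX-02-43: 0 in T>C reads, where 0.0466% of genes were called, 0 in all reads, where 0.152% were called, and 0 in the labelled share, where 0% were called. At an unadjusted p under 0.05 there were 1, 3 and 0 genes, where 306 of 10722, 726 of 13178 and 304 of 10722 lay under it. DESeq2 called 1 of the 8 in T>C reads, where it called 17 higher and 9 lower of 1171 genes given an adjusted p. In all reads it called 1 of the 8, where it called 26 higher and 9 lower of 9739. Both of these DESeq2 calls were SLC38A2. Its all reads were 651.1, 697.7 and 681.7 CPM in WX-02-23, against 503.5, 548.2 and 491.6 CPM in WX-02-43, with no overlap. The log2 change was 0.40 (SE 0.10, 95% interval 0.20 to 0.60). Its adjusted p was 0.133 in edgeR over all 12 libraries, 0.0308 with no filter on low counts, 0.00549 in a fit of the 2 groups alone and 0.00944 in DESeq2. Its T>C reads were 1799, 2289 and 2031 CPM of T>C reads in WX-02-23, against 1467, 1434 and 1342 in WX-02-43, also with no overlap, with a log2 change of 0.53 (95% interval 0.23 to 0.83, adjusted p = 0.766 in edgeR and 0.00861 in DESeq2). Its conversions per 100 covered T ran the other way, 2.355 ± 0.2024 in WX-02-23 and 2.735 ± 0.09928 in WX-02-43, without overlap, and over all coding genes they were 0.8112 ± 0.01559 in WX-02-23 and 0.9132 ± 0.03643 in WX-02-43. SLC6A9 (log2 change of all reads 0.85, 95% interval 0.28 to 1.42), SLC7A1 (0.23, interval -0.002 to 0.47) and SLC3A2 (-0.23, interval -0.42 to -0.03) were not called. The other 4 genes had intervals of the difference in all reads from -0.20 to 0.60, so differences up to those sizes were not excluded by these libraries. PladB was given at another dose, and its values are not tested against the stereoprobes.

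**Figure D5:**
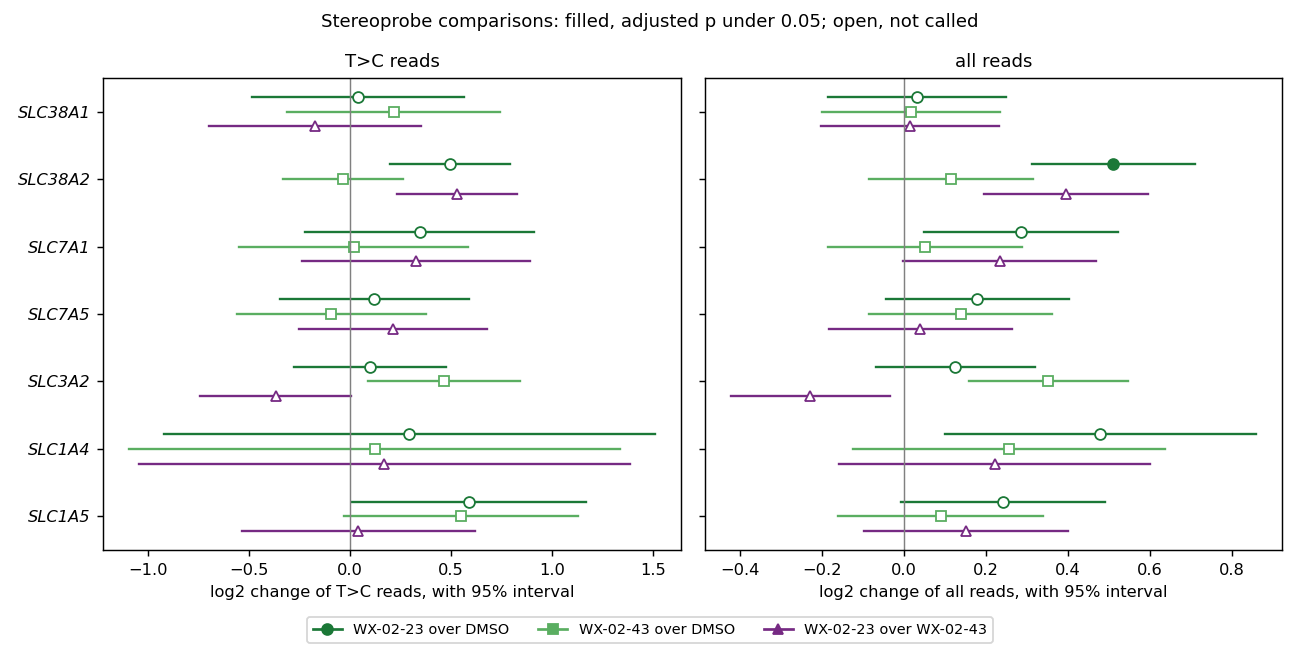
Log2 changes with 95% intervals in the 3 stereoprobe comparisons, T>C reads left and all reads right, for 7 of the 8 genes; SLC6A9 is left out because its T>C intervals reach 5.58. The filled point, SLC38A2 in all reads of WX-02-23 over DMSO (0.51), is the one call; SLC38A2 also lies above 0 in WX-02-23 over WX-02-43 (0.40 in all reads, 0.53 in T>C reads, both open).

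Related transporters were read from a list of 41 other plasma membrane and lysosomal amino acid carriers, all with an interval in the files. Of the 23 tested in all reads, 1 rose after each stereoprobe, where 0.698% of all genes were called in WX-02-23 and 0.167% in WX-02-43. After PladB 1 fell, where 30.1% of all genes were called and 16.3% were called lower. Each time this was SLC7A11, the cystine-glutamate exchanger xCT. All reads of SLC7A11 were 173.1 ± 6.239 CPM after WX-02-23, 179.5 ± 2.527 after WX-02-43, 53.27 ± 9.323 after PladB and 119.2 ± 13.17 after DMSO (SD, n = 3). The log2 changes against DMSO were 0.54 (adjusted p = 0.0379, edgeR), 0.59 (0.0378) and -1.16 (1.28e-08), while WX-02-23 over WX-02-43 gave -0.05 (95% interval -0.32 to 0.21). Of the 14 tested in T>C reads, 0 were called in either stereoprobe, where 0.224% of all genes were called in WX-02-23 and 0.0933% in WX-02-43. In PladB 2 fell, where 10.6% of all genes were called and 5.9% were called lower. These were SLC7A11 (log2 change -2.84, adjusted p = 0.00016, edgeR) and SLC43A2, the LAT4 carrier of branched chain amino acids, which had no T>C read in PladB and 21 ± 7.55 in DMSO (adjusted p = 0.0164, edgeR). The median log2 change of the list in PladB was -0.40 in all reads and -2.12 in T>C reads, where many of these genes had few T>C reads. SLC43A1 (LAT3) and SLC7A6 (a light chain partner of SLC3A2) were at 8.505 ± 1.658 and 1.943 ± 1.308 CPM of all reads in PladB and 11.31 ± 3.914 and 5.622 ± 1.896 CPM in DMSO, and neither was called in any comparison.

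Genes of the ATF4 response, 29 of them and all tested, gave the most calls among these lists in WX-02-23. After WX-02-23, all reads of 8 of the 29 rose and 0 fell, where 0.698% of all genes were called. They included ATF4, the related factor ATF3, the stress factor DDIT3, the pseudokinase TRIB3, the glutathione-degrading enzyme CHAC1, and SESN2 and DDIT4, which restrain mTORC1. CHAC1 had 96.42 ± 21.74 CPM in WX-02-23 and 38.43 ± 10.51 in DMSO (log2 change 1.33, adjusted p = 4.82e-05, edgeR), and ATF4 had 640.3 ± 35.13 CPM in WX-02-23 and 460.7 ± 26.61 in DMSO (0.47, adjusted p = 0.00531). After WX-02-43, where 0.167% of all genes were called, 2 rose and 0 fell. The 2 were CHAC1 (log2 change 1.10, adjusted p = 0.0022, edgeR) and SESN2 (0.93, adjusted p = 9.62e-05). Between the stereoprobes edgeR called 0, where 0.152% of all genes were called. TRIB3 (0.50), DDIT3 (0.36) and ATF4 (0.22) were not called in WX-02-43. In T>C reads the calls were fewer, 2 higher in WX-02-23 (DDIT4 and SESN2) and 1 in WX-02-43 (SESN2). Calls over all genes were fewer there too, 0.224% in WX-02-23 and 0.0933% in WX-02-43. ASNS, the asparagine synthetase, was called in none of the 4 comparisons (log2 changes of all reads against DMSO of 0.35 for WX-02-23, 0.24 for WX-02-43 and 0.28 for PladB).

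After PladB, 4 of the 29 were higher and 8 lower in all reads, where 13.9% of all genes were higher and 16.3% lower. In T>C reads 0 were higher and 11 lower, where 4.72% of all genes were higher and 5.9% lower. DDIT3 rose in all reads (log2 change 1.31, adjusted p = 3.04e-09, edgeR), while CHAC1 (-1.40, adjusted p = 9.95e-07) and SESN2 (-1.22, adjusted p = 1.2e-08) fell. CHAC1 also fell in T>C reads (-3.26, adjusted p = 1.12e-08, edgeR). ATF4 itself had 324.5 ± 36.42 CPM of all reads in PladB and 460.7 ± 26.61 in DMSO (log2 change -0.51, adjusted p = 6.56e-05, edgeR). Its labelled share rose by 1.12 on the log2 scale relative to the typical gene (SE 0.19, adjusted p = 0.00159, edgeR). It was the 1 gene of the list called with a higher share, beside 7 with a lower one. Over all genes 0.914% were called higher and 1.99% lower in the share. Per library the unscaled share of ATF4 overlapped between PladB and DMSO, unlike that of SLC38A2, and the 2 genes were not tested against each other.

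In the remaining pathway lists calls were made after PladB, and a difference from the stereoprobes was not tested. Of 29 tested genes that sense amino acids upstream of mTORC1 and GCN2, 5 rose and 5 fell in all reads after PladB, a share near the 30.1% of all genes called. Subunits of Ragulator, which anchors mTORC1 signalling on lysosomes, were among those that rose, with LAMTOR4 at a log2 change of 0.62 and LAMTOR5 at 0.53. Among those that fell were FNIP2 (-1.39), MIOS (-1.95) and SESN3 (-1.45). MIOS is a subunit of the GATOR2 complex, and WDR24, another of its subunits that was picked out after its values were seen, rose (0.85, adjusted p = 0.00246, edgeR). The list's median was 0.08, beside -0.07 for all genes, and 0 genes were called in either stereoprobe by edgeR. Over all genes, 0.698% were called in all reads of WX-02-23 and 0.167% in those of WX-02-43. Of 16 tested enzymes of glutamine, serine and glycine metabolism, 2 rose (GCSH 0.62, GLUD1 0.36) and 3 fell (GCLC -0.71, GOT1 -0.49, PPAT -0.55) after PladB, again near the 30.1% of all genes called, with a median of 0.09, and 0 were called in either stereoprobe.

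For the 6 genes called in any comparison, the genes most alike in all reads were found by Pearson r of log2 CPM over the 12 libraries, among 8955 genes with a mean of at least 10 CPM. The libraries share 4 groups, so the points are not independent, and r is given as a description. SLC38A2 was most like USP54, LEMD2 and MKLN1 (r = 0.98 each), and SLC1A4 most like INTS2, BLOC1S5 and KNOP1 (0.97 each). SLC7A1 was most like SRGAP2C, EXOSC4 and LYN (0.97 each), of which SRGAP2C has near-identical copies that may share its reads. SLC6A9 was most like IBA57 (0.95), MARK2 and SHOX2 (0.92 each), and SLC7A5 most like DBNL (0.93), ZNF428 (0.92) and DDX39B (0.91). SLC3A2 had the weakest likeness, to SEMA3C (0.86), PTGES2 (0.85) and INPP4A (0.84).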

How the data were processed

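RNA of 12 libraries was measured by SLAM-seq. Per the file headers, the authors used slamdunk 0.4.3 to count reads in 3′ UTR intervals of RefSeq transcripts; the build is hg19 per the submitters' processing notes, and aligner settings are not given in the sources used here. The deposited files give, per interval, read counts, T>C read counts, multimapping counts, counts of covered and converted T positions, CPM, and the conversion rate as a fraction. The labels' molecule field says genomic DNA, although the labels' protocols describe RNA. The deposited counts were used; the deposited CPM and conversion rate fraction served only as checks. Of 29255 intervals, 709 were spike-ins and 5460 non-coding, 24 coding intervals on chromosome Y were left out, and 19871 were summed to 18650 coding genes after 44 of 45 date-like names were restored.

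Counts were tested with edgeR 4.0.16 (quasi-likelihood, TMM, filterByExpr, Benjamini-Hochberg over all genes) in R 4.3.3, with all 12 libraries and the group as the only term. The labelled share was tested as T>C against other reads within libraries, each scaled by its own TMM factors, so that it is relative to the typical gene. Shares per library were compared by exact two-sided permutation tests, adjusted over 32 tests. CPM in the text is TMM scaled, except for the luminal and other cell type markers. Marker CPM are reads scaled to all reads of the library, without TMM, so the 2 kinds of CPM are not comparable. The 95% intervals of log2 changes come from the edgeR fit and include the spread between libraries. Limits from 0 counts (3 counts) cover counting error only, since reads without molecular identifiers are not independent molecules. On simulated data for WX-02-23 against DMSO, log2 changes of 1 were recovered in 40.2% of cases in all reads, 2.41% in T>C reads and 1.09% in the share, and log2 changes of 2 in 75.6%, 18.6% and 9.57%.

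The 8 genes and the pathway lists were chosen with earlier results of these data known. All 8 genes are named; from each list at most 5 called genes per comparison, by smallest adjusted p, plus SLC7A11, SLC43A1, SLC7A6, ATF4, ASNS, CHAC1, TRIB3 and DDIT3 whatever their values. Alternatives were DESeq2 1.42.0 and its size factors, no filter, fits of 2 groups, a replicate block, plain sums of intervals, multimapping reads left out, other scalings and leaving out each library. The 3 comparisons with DMSO share its libraries.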

Additional observations from a re-analysis of the deposited data

How the results depend on the processing

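Of 499 recomputed values of the 8 genes, 460 kept their direction and their side of the threshold, 13 lost a call, 13 gained one and 13 changed sign. Of 170 recomputations of the 14 called values, 156 kept both, 13 lost the call and 1 changed sign; the causes were not tested. That one was SLC7A5 in T>C reads of PladB against DMSO, at -0.0659 when scaled to all reads. With both read classes scaled to the same total, the labelled shares of SLC38A1 and SLC7A5 in PladB were -0.6746 and -0.6140. Leaving out 1 library at a time, uncalled changes in PladB crossed 0: SLC38A1 ranged from -0.2309 to 0.1739 in T>C reads and -0.0267 to 0.4563 in the share, and SLC1A5 from -0.3326 to 0.1917 in T>C reads, -0.1524 to 0.0958 in all reads and -0.4796 to 0.3289 in the share. The number of the 8 genes called in PladB then ranged from 3 to 4 in T>C reads, 5 to 6 in all reads and 2 to 3 in the share. Over 11250 to 11370 genes tested, calls ranged from 381 to 510 higher and 451 to 710 lower in T>C reads. In the share they ranged from 58 to 75 higher and 115 to 256 lower. In all reads, over 13528 to 13558 genes tested, they ranged from 1465 to 1718 higher and 1803 to 2006 lower. The number called was 7 in place of 4 in T>C reads of PladB when scaled to all reads (SLC38A1, SLC3A2, SLC1A5 and SLC6A9 gained and SLC7A5 lost), and 1 in place of 3 in its share when only the 2 groups were fitted. DESeq2 called 1 gene in place of 0 in T>C reads of WX-02-23 against DMSO and against WX-02-43, and in all reads of WX-02-43 against DMSO and WX-02-23 against WX-02-43. That last comparison also had 1 call without a filter, where 26 genes were called higher and 7 lower of 14960. With only the 2 groups fitted it had 1 as well, where 22 genes were called higher and 4 lower of 12599. The main fit of that comparison called 16 genes higher and 4 lower of 13178. Groups did not overlap in 7 of 32 comparisons of labelled shares and in 15 of conversions per covered T. The 7 include SLC6A9 in PladB, for which no order is given above. Of 7927 genes ranked by share, 37% lay lower and 1.1% higher without overlap in PladB, and 6.08% higher in WX-02-23, each against DMSO. For the other comparisons and for conversions, the rate over all genes was not computed. Conversions per 100 covered T over all coding genes also differed between groups. They were 0.8112 for WX-02-23, 0.9132 for WX-02-43, 0.3178 for PladB and 0.7062 for DMSO. The count of 15 is therefore not read as a result about the 8 genes. The rise of SLC38A2 in all reads of WX-02-23 kept its call under every alternative run (adjusted p 1.24e-05 to 0.0149), also with each library left out (0.00284 to 0.0344).

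Over all genes, T>C calls in PladB were 323 higher and 170 lower with only the 2 groups fitted, against 506 and 633. Calls in the PladB share were 3 higher and 1182 lower with the same total, and 37 and 60 with 2 groups, against 98 and 213. DESeq2 called 53 higher and 22 lower of 1938 genes in T>C reads of WX-02-23, against 18 and 6 of 10722 in edgeR. Same-numbered libraries did not deviate together (correlations -0.0251 to 0.0258 in T>C reads, -0.0320 to 0.0399 in all reads), and 5 and 4 of 12 libraries were closest to their own number. With the replicate number as a block, 4 of the 8 genes were called in T>C reads and 6 in all reads of PladB, and 1 in all reads of WX-02-23, as without it. Over all genes that fit called 494 higher and 595 lower of 10722 in T>C reads of PladB. In all reads, of 13178 genes, it called 1821 higher and 2132 lower in PladB, and 66 and 38 in WX-02-23. Of simulated log2 changes of 1 in WX-02-23 against DMSO, 40.2% were recovered in all reads, 2.41% in T>C reads and 1.09% in the labelled share. These were in genes drawn at random, not matched to the 8 genes in reads.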
